A study of Mus musculus with 5 samples.

Results

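Chemokines are small secreted proteins that direct the movement of leukocytes, and their receptors are G protein-coupled receptors on the cells that respond. The families are named after the spacing of cysteines near the start of the ligand: Ccl, Cxcl, Xcl1 and Cx3cl1 for the ligands and Ccr, Cxcr, Xcr1 and Cx3cr1 for their receptors. In bone marrow, stromal Cxcl12 holds progenitors back through Cxcr4, while Ccr2 and Cxcr2 are known for the release of monocytes and neutrophils into blood. Dendritic cells are known to gain Ccr7 as they mature, and the cross-presenting kind carries Xcr1.

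The chemokine genes described here were all probe sets of a mouse array whose single platform gene symbol was Ccl, Cxcl, Ccr, Cxcr or Xcr followed by a number, or Xcl1, Cx3cl1, Cx3cr1 or Pf4. They comprised 45 of 12488 probe sets, for 40 of 8251 named genes: 30 for 25 ligand genes and 15 for 15 receptor genes. A further 4 probe sets carried several symbols, at least 1 of them of this kind, and were counted but not named. Of these 4, 1 lay above the array median on no array, 2 on 1 array and 1 on 3 arrays.

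Total RNA of 5 mouse samples had been hybridized, 1 array for each. All 5 belonged to 1 group, FLT3+/CD11b+ dendritic cell progenitors of bone marrow, numbered 1 to 5, and the labels name no strain, age, genotype, treatment or pooling. With 1 group there was no contrast between conditions, so the measurements tell which chemokine genes the arrays reported and how much that varied from sample to sample. Nothing says that the samples came from separate animals, so their spread may in part be technical.

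Signals are deposited intensities with all arrays brought to the same median, 103, and are given for samples 1 to 5 in that order. Without detection calls, the median of each array served as the limit. It places a probe set within its array, where probe sets differ in how brightly they report, and says nothing certain of a transcript's presence. Signals of different probe sets are therefore not set against each other. Signals under 30.0, which is the 25th percentile over all arrays together, have no order and were set to that floor on the log2 scale.

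The sorted cells had signal for both genes of the sort on all 5 arrays, with a mean of 745 ± 463 for Flt3 and 477 ± 215 for Itgam, which encodes CD11b (SD, n = 5). Of 11 neutrophil granule genes, 10 lay above the array median on all 5 arrays, and of 8 monocyte and macrophage genes 7 did. None of 5 T and NK cell genes, 5 B cell genes and 4 plasmacytoid dendritic cell genes did so. By contrast, 1 of 6 mature dendritic cell genes and 3 of 5 stromal and endothelial genes did. Of 7 genes of the sort and of progenitors, 5 did. Over all 8251 named genes the share was 44.5%. These counts use the brightest probe set of each gene. Among the genes that did so, Col1a2 and Vwf of the stromal and endothelial list each had another probe set above the median on 0 arrays. The same held for Lyz2, Cd68 and Adgre1 of the monocyte and macrophage list. The deposited array medians were 392, 72.7, 76.9, 66.5 and 81.2. The ratio of 3' to 5' signal of the transferrin receptor control was 3.14, 3.77, 16.7, 8.63 and 5.16, highest in sample 3. These are bulk samples, in which fewer cells of a type and less RNA per cell cannot be told apart.

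Chemokine ligands had signal above the array median on all 5 arrays for 3 of 30 probe sets, Ccl3, Ccl6 and Ccl9. Receptors did so for 3 of 15, Ccr1, Ccr2 and Cxcr4. Over all 12422 probe sets that are not controls the share was 36.7%, against 10% of the ligands and 20% of the receptors. With the limit at the 40th percentile 4 ligand and 4 receptor probe sets exceeded it throughout, against 42.9% of all probe sets, and with the 75th percentile 2 and 2, against 17.4%. At the other end, 15 of 30 ligand probe sets (50%) and 6 of 15 receptor probe sets (40%) lay above the median on no array, against 34.1% of all probe sets. With so few receptors, their share here and at the 75th percentile was near that of all probe sets. The median over probe sets of the mean log2 signal was 5.40 for ligands and 5.92 for receptors, against 6.49 for all probe sets. Most chemokine genes thus lay in the lower part of these arrays, and the few that did not are described first.

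**Figure D1:**
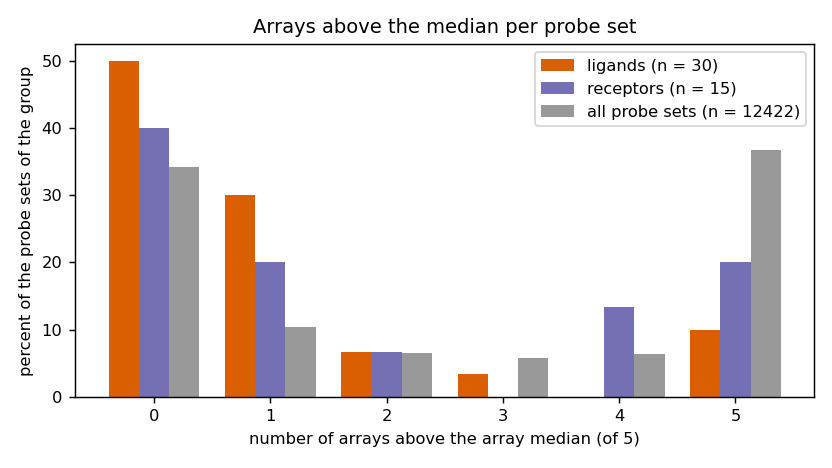
Share of probe sets (percent, vertical axis) by the number of arrays on which they exceeded the array median (0 to 5, horizontal axis), for 30 ligand probe sets, 15 receptor probe sets and all 12422 probe sets. Ligands stand at 50% for 0 arrays and 10% for 5 arrays, all probe sets at 34.1% and 36.7%.

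The 3 ligands above the limit throughout are neighbours. In the RefSeq annotation of the mouse genome (GRCm38.p6), the protein-coding genes from Ccl5 to Ccl4 follow each other as Ccl5, Ccl9, Ccl6, Ccl3 and Ccl4, with no other protein-coding gene between. Of these 5, Ccl9, Ccl6 and Ccl3 were above the array median on 5 arrays, Ccl4 on 3 and Ccl5 on 0. All 3 are also known ligands of Ccr1, itself above the limit on 5 arrays. The 200 bases before the start of each of these 4 genes, from RefSeq, are shown because the genes were above the limit together. All 4 lie on the minus strand and read 5′ to 3′ towards the gene. The windows are chr11:83578637-83578836 for Ccl9, chr11:83593088-83593287 for Ccl6, chr11:83649379-83649578 for Ccl3 and chr9:123968693-123968892 for Ccr1 (GRCm38.p6). Capitals mark matches to the motifs listed after the sequences and, in Ccl6, the longest exact repeat.
Ccl9: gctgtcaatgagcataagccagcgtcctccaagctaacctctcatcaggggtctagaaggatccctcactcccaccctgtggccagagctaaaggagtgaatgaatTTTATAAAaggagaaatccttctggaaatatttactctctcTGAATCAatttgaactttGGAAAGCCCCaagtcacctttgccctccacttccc
Ccl6: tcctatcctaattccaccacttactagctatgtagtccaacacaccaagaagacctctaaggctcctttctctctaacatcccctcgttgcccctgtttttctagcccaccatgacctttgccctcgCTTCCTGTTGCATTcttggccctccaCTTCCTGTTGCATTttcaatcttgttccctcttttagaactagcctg
Ccl3: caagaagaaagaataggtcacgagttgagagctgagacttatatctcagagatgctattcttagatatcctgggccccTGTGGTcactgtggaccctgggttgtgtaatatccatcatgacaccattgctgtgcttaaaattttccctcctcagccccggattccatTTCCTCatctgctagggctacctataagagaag
Ccr1: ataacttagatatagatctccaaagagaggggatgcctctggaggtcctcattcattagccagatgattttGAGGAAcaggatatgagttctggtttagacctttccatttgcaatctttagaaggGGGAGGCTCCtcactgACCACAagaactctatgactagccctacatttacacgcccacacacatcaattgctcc

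The motifs, searched on both strands, were TATAAA (the TATA box), GAGGAA (a core of sites of the myeloid factor PU.1), TTGCNNAA (C/EBP), TGANTCA (AP-1), TGTGGT (Runx factors) and the consensus of NF-kappaB. Ccl9 held TATAAA in overlapping matches on both strands, TGANTCA and a match to the NF-kappaB consensus. Ccl3 and Ccr1 each held GAGGAA and TGTGGT, and Ccr1 also the NF-kappaB consensus. Ccl6 held none of the 6 motifs, but a repeat of 14 bases, CTTCCTGTTGCATT, stood in it in 2 copies. An exact repeat at least that long was found in 2.65% of all 32851 promoter windows of the same length. The repeat was chosen after the sequence was seen.

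Promoters were found for 32 of the 40 member genes. A gene was counted if any of its windows held a motif, whereas the share over all windows counts each window once. Where a gene has several windows, these shares are not on the same footing. TATAAA was in the windows of 9 of these 32 genes (28.1%), against 9.96% of all windows, and GAGGAA in 8 (25%), against 19.0%. The NF-kappaB consensus was in 8 (25%), against 6.07% of all windows, and TGANTCA in 4 (12.5%), against 5.48%. A narrower form of the NF-kappaB motif, which fixes 3 bases that the consensus leaves to 2 choices each, was searched first and replaced by the consensus after its result was seen. That form was in 5 of the 32 genes (15.6%), against 1.04% of all windows, and in 0 of the 6 genes above the limit on all 5 arrays, so the matches in Ccl9 and Ccr1 depend on the wider form. Figures for TGTGGT were 6 (18.8%), against 11.2%, and for TTGCNNAA 1 (3.12%), against 7.47%. The motifs were chosen with the signals known. A match is a run of letters and not a bound site.

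Ccl9, a CC chemokine made by myeloid cells, had signals of 2434, 2278, 1828, 2321 and 1156, a mean of 2003 ± 527 (SD, n = 5). Sample 5 was lowest, and the other 4 lay between 1828 and 2434. Ccl6, a related CC chemokine of macrophages and myeloid cells, had 406, 456, 557, 300.1 and 896 (523 ± 228). Its highest signal was in sample 5, where Ccl9 had its lowest, and its lowest in sample 4. Ccl3, an inflammatory CC chemokine also known to restrain the division of blood stem cells, had 363, 553, 382, 461 and 363 (424 ± 82.4), with sample 2 highest. Its highest signal was 1.52 times its lowest, against 2.98 times for Ccl6 and 2.11 times for Ccl9. The SD of log2 signal without sample 5 was 0.18 for Ccl9, against 0.45 in all samples, and 0.37 for Ccl6, against 0.59.

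Ccl4, an inflammatory CC chemokine that neighbours Ccl3, was the 1 further ligand above the limit on at least 3 arrays, where the share over all probe sets was 48.9%. Its signals were 20.9, 139, 64.5, 147 and 152. Samples 2, 4 and 5 lay near each other above the limit and samples 1 and 3 below it.

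**Figure D2:**
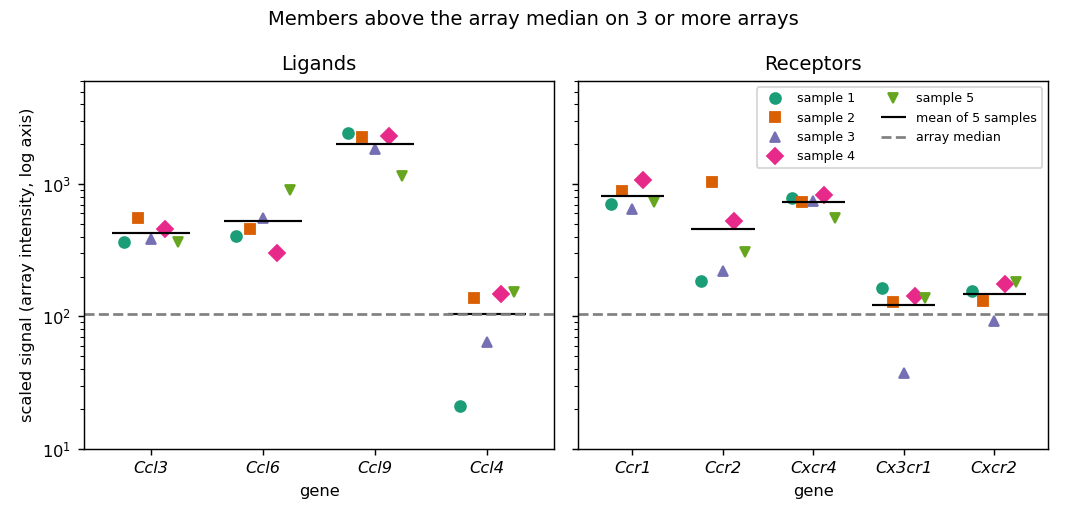
Scaled signal (array intensity, logarithmic vertical axis) of the 4 ligands and 5 receptors above the array median on at least 3 arrays, with a point for each of 5 samples, a bar at their mean and a dashed line at the common array median. Cxcr4 points lie between 556 and 824, Ccr2 points between 185 and 1031, and Ccl6 is highest in sample 5 where Ccl9 is lowest.

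Cxcr4, the receptor for Cxcl12 that keeps progenitors in the marrow, had signals of 778, 732, 739, 824 and 556, a mean of 726 ± 102 (SD, n = 5). The samples lay close together, with sample 5 lowest. Ccr1, the receptor for Ccl3, Ccl6 and Ccl9, had 706, 889.9, 652, 1078 and 731 (811 ± 173), with sample 4 highest. Among the 4555 probe sets above the limit on all arrays, 8.34% had a lower SD of log2 signal than Cxcr4 and 21.4% a lower one than Ccr1. Their SDs were 0.22 and 0.29 on the log2 scale, beside a median SD of 0.43 over the 4555. With quantile normalization that of Ccr1 was 0.18.

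Ccr2, the receptor that monocytes need to leave the marrow, varied most among the receptors above the limit, with signals of 185, 1031, 219.6, 525 and 307 (454 ± 349). Sample 2 was highest and samples 1 and 3 lowest, a range of 5.57 times. Its SD was 1.01 on the log2 scale, and 98.5% of the 4555 probe sets had a lower one. Without sample 2 the SD was 0.66. In limma's test of each variance against those of probe sets of like mean signal, Ccr2 had an unadjusted limma p of 0.0288 and an adjusted p of 0.925 over 5814 probe sets, so it did not pass. Summed signals of 8 monocyte and macrophage marker genes were 10117, 13950, 10600, 20858 and 9805, of which Lyz2 alone made up 16251 in sample 4, so the order of the sums is largely that of Lyz2. Samples 2 and 4 were the 2 highest for Ccr2 and for 5 of the 8 genes, Lyz2, Cd14, Adgre1, Ms4a6c and C1qb. For Cd68, C1qa and Apoe they were not, and sample 1 was highest for Cd68 and Apoe. This order was not particular to monocyte genes. Samples 2 and 4 were also the 2 highest for 4 of 7 genes of the sort and of progenitors, with Flt3 but not Itgam. They were so for 3 of 6 mature dendritic cell genes, Cd86, Cd83 and Itgax, and 2 of 4 erythroid and megakaryocyte genes. Itgax is counted in the list of the sort and of progenitors too. For Cd83, samples 1, 3, 4 and 5 all lay under the floor, so the second place of sample 4, at 28.3, is not settled. Of 11 neutrophil granule genes 2 had this order, and in every other marker list 0 did. How often all probe sets had this order was not counted. Of the 4555 above the limit, 2452 were above their own means in sample 2 and 3140 in sample 4. The part of monocytes in the Ccr2 signal was not tested.

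Cxcr2 and Cx3cr1 were above the limit on 4 arrays, and sample 3 was the exception for both. Cxcr2, the neutrophil receptor for Cxcl1, Cxcl2 and Cxcl5, had 155, 130.4, 92.5, 174 and 182 (147 ± 36.3). The summed signals of 11 neutrophil granule genes were 79382, 169470, 126117, 256590 and 169409, an order set by the brightest probe sets, those of S100a8, S100a9 and Ngp. Gene by gene, 3 of the 11 were lowest in sample 1, 6 in sample 2 and 2 in sample 3, where Cxcr2 was lowest. The part of neutrophils in the Cxcr2 signal was not tested. Cx3cr1, the fractalkine receptor of monocytes and of progenitors of macrophages and dendritic cells, had 165, 128, 37.5, 142 and 138 (122 ± 49.2). Sample 3 stood apart by Dixon's test at 95% from the other 4, which lay between 128 and 165; among all probe sets not wholly at the floor, 18.1% had such a sample. Its SD of log2 signal was 0.87, and 0.16 without sample 3. Sample 3 had the highest 3' to 5' ratio of the transferrin receptor control, at 16.7, and of the Gapdh control, at 4.52, while that of actin was highest in sample 4, at 5.20, against 4.15 in sample 3. The part of RNA quality was not tested. Without sample 3, 5 of the 15 receptors were above the limit on all remaining arrays.

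The other 10 receptors lay below the limit on most arrays. Xcr1, the marker of cross-presenting dendritic cells, was above it on 2 arrays, with 60.3, 117, 142, 55.4 and 10.6. Ccr3, Ccr6 and Ccr9 were above it on 1 array each. Ccr3, a receptor of eosinophils and basophils, had 22.9, 55.6, 60.8, 10.4 and 198, so that only sample 5 exceeded the limit. Of 5 mast cell, basophil and eosinophil genes 3, Cpa3, Mcpt8 and Prg2, were above the limit on all arrays and Fcer1a and Il5ra on none, with summed signals of 1954 in sample 5 and 1321 to 2938 over all samples. In sample 5, 1 probe set of the mast cell gene Cpa3 was at its highest, 588, and the other at 909, within its range of 593 to 2132. The eosinophil granule gene Prg2 had 307, 146, 188, 435 and 435, and the basophil gene Mcpt8 had 595 in sample 5, within its range of 384 to 657. These are their brightest probe sets. A second one of Prg2 was above the limit on 0 arrays, with at most 45.7. The second one of Mcpt8 was above it on 1 array and had 22.7 in sample 5, under the floor of 30.0. The part of these cells in the Ccr3 signal was not tested. Ccr6 reached 120.3 in sample 5 and Ccr9, the gut and thymus homing receptor, 113 in sample 3.

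Ccr7 and 4 receptors of T and B cells were among the 6 above the limit on no array. Ccr7 had 82.8, 23.9, 9.68, 45.6 and 73.6. The T cell receptors Ccr4, Ccr8 and Cxcr3 and the B cell receptor Cxcr5 had highest signals of 52.1, 36.7, 61.6 and 49.8. Ccr1l1, a mouse gene next to Ccr1, reached 49.7. In the RefSeq order Ccr1, Ccr1l1, Ccr3 and Ccr2 follow each other, so genes above the limit on 5 arrays and on 0 or 1 stand side by side.

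A second run of neighbouring ligand genes lay lower. The genes Ccl2, Ccl7, Ccl11, Ccl12, Ccl8 and Ccl1 follow each other in RefSeq order, and none was above the limit on over 2 arrays. Ccl2, the main ligand of Ccr2, had 25.2, 34.7, 48.7, 37.0 and 4.33. Ccl7, another Ccr2 ligand, was above the limit in samples 3 and 5 only, with 46.4, 2.84, 106, 14.3 and 115. Ccl12 exceeded it in sample 1, at 124, and Ccl8 in sample 3, at 118. The eosinophil attractant Ccl11 reached 58.4.

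Ccl1 was reported by 2 probe sets that disagreed. The first was above the limit in sample 4, at 138, where the second had 40.1. The second was above it in sample 2, at 115, where the first had 28.4.

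Of the Cxcr2 ligands Cxcl1, Cxcl2 and Cxcl5, Cxcl1 exceeded the limit in sample 5 and the others in no sample. Its 2 probe sets had 19.0, 84.4, 6.86, 7.93 and 108 in 1 and 24.7, 12.9, 20.7, 18.0 and 155 in the other. Sample 5 was highest in both, and they differed most in sample 2. Cxcl2 had at most 82.3 and Cxcl5 at most 48.8. The platelet chemokine Pf4 had at most 37.9, beside 4 erythroid and megakaryocyte genes of which none was above the limit on all arrays. Interferon-induced Cxcl9 and Cxcl10 reached 86.2 and 59.8.

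Cxcl12, Cxcl13, Ccl25, Ccl17 and Ccl5 were above the limit on no array. Cxcl12, the ligand of Cxcr4, had 3 probe sets, all above the limit on 0 arrays, with highest signals of 71.9, 29.0 and 20.6. Cxcl13, which draws B cells, reached 74.8, Ccl25, the ligand of Ccr9, 53.1, and Ccl17, made by mature dendritic cells, 26.6. Ccl5, made by T cells among others, had 14.8, 27.6, 12.8, 10.3 and 13.7, all below 30.0. Ccl22, the other ligand of Ccr4, was nearer the limit, with 82.5, 114, 85.3, 99.8 and 163.

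A few ligands exceeded the limit in sample 3 alone. Xcl1, the ligand of Xcr1 made by T and NK cells, had 31.9, 15.6, 128, 16.0 and 18.7, while 4 of 5 T and NK cell genes were above the limit on no array. Cx3cl1, fractalkine, had 37.8, 17.8, 161, 28.1 and 12.0 in 1 probe set and 7.40 in sample 3 in the other, so the signal rested on 1 of 2 probe sets. Cxcl14 reached 125 and Ccl8 118 there. Of the 12 member probe sets above the limit on exactly 1 array, 5 were so in sample 3 and 4 in sample 5. Over all 1294 such probe sets, 25.3% were so in sample 3 and 25.04% in sample 5.

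**Figure D3:**
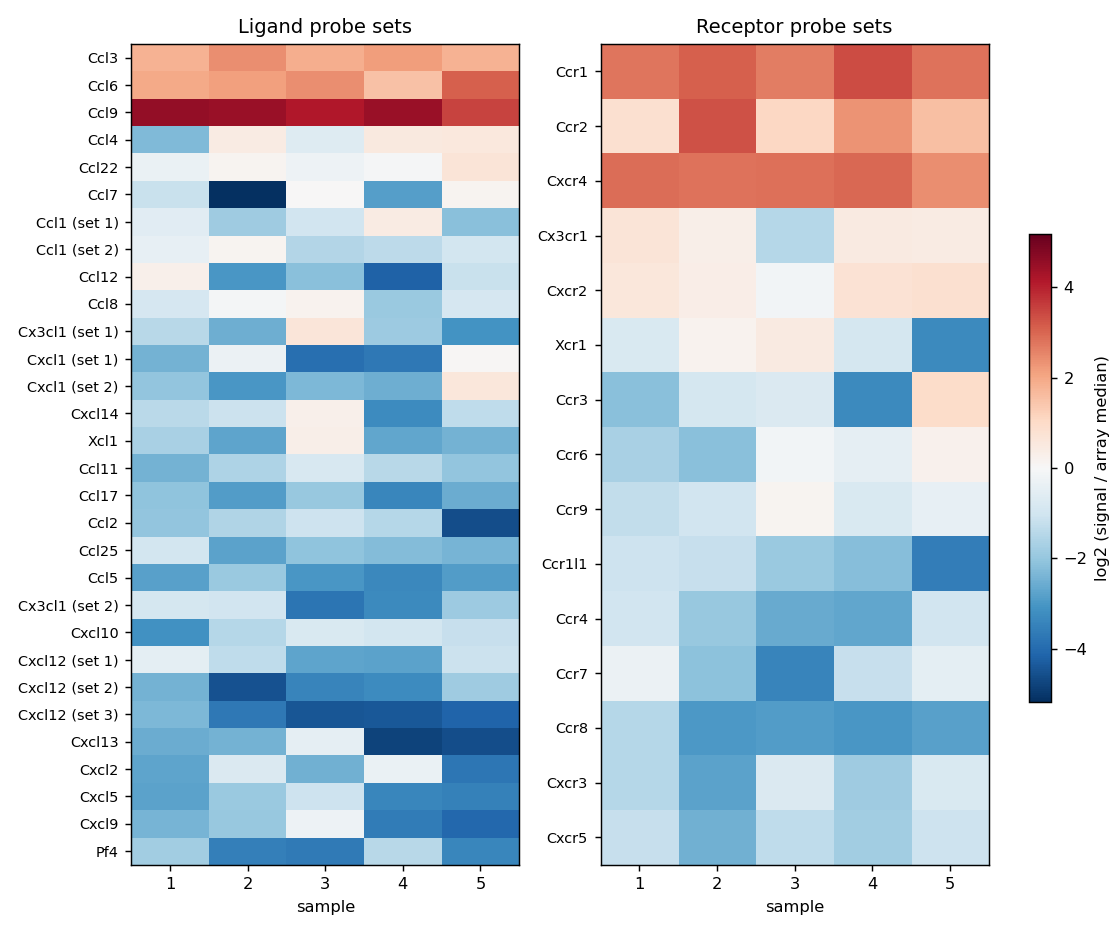
Log2 of signal over the array median (colour, red above and blue below) for 30 ligand probe sets (left) and 15 receptor probe sets (right), in rows, across 5 samples, in columns; genes with several probe sets have numbered sets. Ccl3, Ccl6, Ccl9, Ccr1, Ccr2 and Cxcr4 are red in all 5 samples, and most other rows are blue with single red cells.

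Ligands and receptors were then set beside each other for 25 known pairs of which both genes were measured. In 3 pairs both were above the limit on all arrays, Ccr1 with Ccl3, with Ccl6 and with Ccl9. In 7 pairs only the receptor was: Ccr2 with Ccl2, Ccl7, Ccl8 and Ccl12, Ccr1 with Ccl5 and Ccl7, and Cxcr4 with Cxcl12. In 0 pairs only the ligand was, and in 15 neither was. Receptors for which the measured ligands lay low thus included Ccr2 and Cxcr4.

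The samples did not order the 6 genes above the limit in 1 way. The median over the 3 receptors of log2 signal minus a gene's own mean was -0.18, 0.16, -0.29, 0.43 and -0.26 in samples 1 to 5, against -0.07, 0.04, -0.01, 0.18 and -0.10 over all 4555 probe sets above the limit. All 3 receptors were above their own means in samples 2 and 4 and none in sample 5. Of the 4555 probe sets, 2452 were above their own means in sample 2, 3140 in sample 4 and 1813 in sample 5. The arrays as a whole thus leaned the same way in these samples. For the 3 ligands the medians were -0.20, 0.23, -0.08, 0.14 and -0.21, and that in sample 4 turned to -0.04 with quantile normalization and to -0.03 with scaling to a common trimmed mean. Over all members with a mean above the median, the ligands in sample 5 turned to 0.21 and the receptors in sample 1 to 0.11, so these directions are not settled either. The median of log2 signal minus own mean over the 4555 probe sets was also highest in sample 4.

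Limma's variance test covered 9 member probe sets, those with a mean log2 signal above the median, and called 0 of them at an adjusted p of 0.05. Over all 5814 probe sets tested it called 0 (0%). At an unadjusted p under 0.05 it gave 1 member, Ccr2, and 290 of 5814 (4.99%). After Ccr2 came Ccl6 with a limma adjusted p of 0.978, Cx3cr1 with 0.978, and Ccl9 and Ccr1 with 0.995 each. Because its yardstick comes from the same variances, this test can only rank probe sets and says nothing of the arrays as a whole.

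Other genes of chemoattractant signalling, which carry the response inside the cell, were taken as 5 lists. Of 48 listed genes 35 were measured, and 23 of these (65.7%) were above the limit on all arrays, against 44.5% of all 8251 named genes with 1 probe set each. Of the G proteins and effectors 6 of 7 were, including Gnai2, the main inhibitory G protein subunit of leukocytes, at 17328.5 ± 6414 in its brightest probe set, and Gnb1 at 741 ± 404. Of the migration effectors 7 of 8 were, among them the small GTPase Rac2 at 5594 ± 3298 and its activator Dock2 at 354 ± 50.2 (SD, n = 5). Dock2 lay between 305 and 421 in every sample, and Rac2 between 2318 and 10242.

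Genes that switch receptors off were above the limit for 5 of 7. The receptor kinase gene Grk6 had 1117 ± 266 and the arrestin gene Arrb1 222 ± 52.8. Of the other chemoattractant receptors 5 of 8 were, namely Ltb4r1 for leukotriene B4 at 820.2 ± 391, C5ar1 and C3ar1 for complement fragments at 366 ± 276 and 301 ± 149, the formyl peptide receptor Fpr2 at 274 ± 206, and S1pr4 at 261 ± 59.8. C5ar1 had 856 in sample 1 and at most 290 elsewhere, and Fpr2 had 637 in sample 4 and at most 236 elsewhere.

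The atypical receptors, which act without G protein signalling, were above the limit on all arrays for 0 of 5. Ackr1, Ackr2, Ackr3 and Ackr4 were above it on no array, with highest signals of 36.0, 64.7, 31.3 and 59.9. Ccrl2 was above it on 3 arrays, with 174, 14.2, 109, 123 and 76.6. Its samples thus fell on either side of the limit, with sample 2 lowest.

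**Figure D4:**
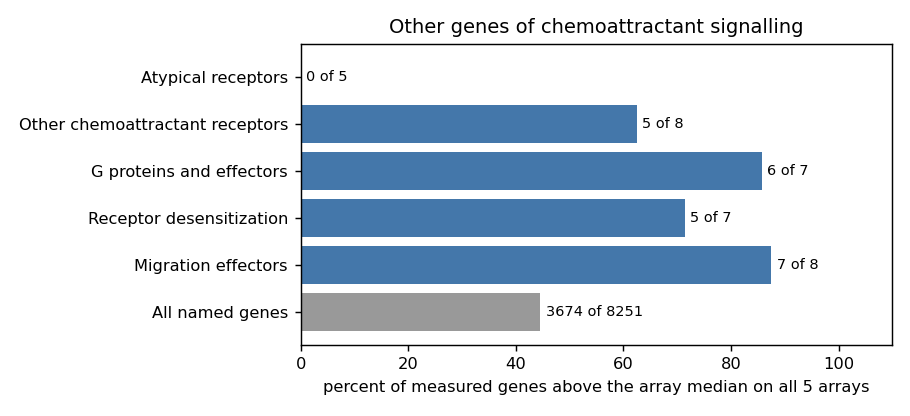
Percent of measured genes above the array median on all 5 arrays (horizontal axis) for 5 lists of chemoattractant signalling genes and for all named genes, with counts beside the bars. Atypical receptors stand at 0 of 5, migration effectors at 7 of 8 and all named genes at 3674 of 8251.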

How the data were processed

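The deposited values were linear intensity values, 1 per probe set and array; the software and the scaling are not given in the sources used here, and for RNA preparation and hybridization the labels cite an earlier paper. Trimmed means (2% off each end) were 1001 in sample 1 and 200.1 in each of the others. The 66 control probe sets were left out. Each array was scaled to the geometric mean of the array medians, values under the 25th percentile were raised to it, and log2 was taken (Python 3.11.15, pandas 2.3.3). Genes were named through the platform annotation: 10833 probe sets had 1 symbol, 396 several and 1193 none listed, and 0 member symbols changed through RefSeq. Probe sets of a gene were kept apart; lists of other genes used the brightest probe set of a gene by mean log2. Variances were tested with limma 3.58.1 (R 4.3.3, robust scaled F distribution with a trend, Benjamini-Hochberg adjustment). A run of the procedure on simulated data is not reported here. It does not tell whether a spread like that of Ccr2 would be called. Values in all samples were given for genes above the limit on 3 or more arrays, with a sample apart by Dixon's test and a value above the limit, or among the 5 lowest variance p; others were named with their highest values or counts. Xcr1, Ccr3, Ccr7, Ccl2, Ccl5, Ccl7, Ccl22, Ccrl2 and Prg2 were given in all samples outside this rule, chosen after their values were seen. The number of arrays limits the precision. The members, lists and pairs were chosen with earlier results of these data known.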

Additional observations from a re-analysis of the deposited data

Results flagged for a closer look

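In 10 of 41 member probe sets with at least 1 value over the floor of 30.0, 1 sample stood apart from the other 4 by Dixon's test at 95%. Chance flags about 1 in 20 groups, and among all 11805 such probe sets of the table the share was 18.1%. In 7 of the 10, the other 4 values were all at the floor, so that the size of the gap rests on the floor. With the floor, sample 3 stood apart in 6 of the 10. It was high for Cx3cl1 at 161, Xcl1 at 128, Cxcl9 at 86.2, Cxcl13 at 74.8 and Cxcl5 at 48.8, and low for Cx3cr1 at 37.5. Sample 1 was high for Ccl25 at 53.1 and Ccr8 at 36.7, sample 4 for Pf4 at 37.9, and sample 5 for 1 probe set of Cxcl1 at 155. Of these 10, Cx3cl1, Xcl1, Cxcl1 and Cx3cr1 exceeded the limit in at least 1 sample. Without the floor, only Cx3cr1, Cxcl1 and Ccr8 of the 10 still had the same sample apart. For sample 3 that left Cx3cr1 alone, so its 5 high signals stood apart only with the floor.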

How the results depend on the processing

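Scaling or quantile normalization cannot change a count above a limit within an array. Ligands above it were 4 at the 40th and 2 at the 75th percentile, 4 where 3 of 5 arrays sufficed and 3 whichever sample was left out. Receptors were 4, 2, 5 and 3 to 5, with 5 without sample 3. Variance calls stayed at 0 in each of 10 alternatives, among members and over all probe sets tested, so they say nothing particular of the members. The shift of receptors in sample 4, 0.43, was 0.23 with quantile normalization, 0.26 with trimmed mean scaling and 0.21 to 0.47 without another sample; that in sample 5, -0.26, was -0.12 over members with a mean above the median and -0.34 to -0.085 without another sample. Of the shifts by sample, 4 turned sign under another scaling or choice of members, all given above, and 0 did so with a sample left out. Mean log2 signals of the 9 genes above the limit on 3 or more arrays moved by over 1 SD in 5 of 45 values with 1 sample left out, all without sample 1, whose deposited median raises the common median. SDs of log2 signal that moved by over 1.5 times when 1 sample was left out were, beside those given above, those of Ccl4 (1.02, 0.59 without sample 1), Cxcr4 (0.22, 0.079 without sample 5), Ccl3 (0.27, 0.16 without sample 2), Cxcr2 (0.40, 0.21 without sample 3) and Ccr1 (0.29, 0.19 without sample 4); quantile normalization moved that of Ccr1 to 0.18. Chosen after seeing the data were the alternatives for pairs (2 at the 75th percentile and 3 otherwise), for signalling genes, where 12 against 23 were above the 75th percentile, for the NF-kappaB motif, and for samples apart, which were 5 without the floor, 3 of them shared with the 10. No paired analysis was possible because the samples form 1 group. With 5 arrays and no background signal, values near the limit cannot be called present or absent.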
